A study of Mus musculus with 719 samples.

Results

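The comparison is between single cells labelled as ON-OFF direction-selective ganglion cells. They were taken from mouse retinas at postnatal day 12 (P12) and at postnatal day 14 (P14), the days around eye opening. The members are all single cells labelled as ON-OFF cells of the HB9-GFP line at these ages, 29 at P12 and 45 at P14, which makes 74 of the 719 cells of the series. Earlier cells of the same label serve as context, with 40 at P4, 38 at P5, 36 at P8 and 49 at P10, so that 237 ON-OFF cells were analysed. All of them carry the HB9-GFP transgene, in which the promoter of Mnx1 (the gene also called HB9) drives GFP, and all are labelled as preferring downward motion. No untreated or wild-type control group belongs to this comparison, since by their labels these groups differ only in age. Each cell was sorted as GFP positive, positive for fluorescent cholera toxin B and negative for the microglial surface protein CD11b, after papain dissociation of the retina. No animal is named, so the cells of 1 age form 1 pool with no replicate, and the number of animals behind it is unknown. The series' own description lists ages up to P12 only, whereas the labels of 45 cells give P14.

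ON-OFF direction-selective ganglion cells respond to the onset and the offset of light and report the direction in which an object moves. They receive excitation from bipolar cells and directed inhibition from starburst amacrine cells, and send axons to the thalamus and midbrain. Before eye opening they see spontaneous retinal waves and light through the closed lids, and afterwards patterned vision. In these days ganglion cells are still refining their axons and synapses.

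Levels are given in CPM, in which the fragments of all named genes are scaled to the same total in every cell. A difference is that of log2(mean CPM + 5) between 2 pools, which understates the change of genes with low levels. A gene was counted as higher or lower where this difference reached 1 (2-fold), among genes whose mean over both pools was at least 5 CPM. With 1 pool per age this comparison has no test, and the spread over cells is given as a description. Pools held a median of 1044295 gene fragments per cell at P12 and 924708 at P14.

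The cells were first held against the markers of their label. The summed level of 16 ganglion cell genes, among them Rbpms, Slc17a6 and the neurofilament genes, had a lowest, median and highest value of 7464, 13580 and 17511 CPM at P12. Over all 45 cells at P14 these values were 1.41, 11451 and 14900 CPM. At P14 2 cells stood far below all others, with 1.41 and 37.1 CPM, while the lowest of the other 235 ON-OFF cells had 4310 CPM. Both had 0 CPM of all 11 ON-OFF markers on the list. Their 12 microglial genes summed to 31711 and 37166 CPM, with 11 of the 12 detected in each, and their glial genes to 20946 and 11341 CPM. One of them also had 6259 CPM of rod photoreceptor genes. Both carried Itgam, the gene of the CD11b protein used to sort microglia away, which had a fragment in 4 of the 45 cells at P14. These cells go against their label, so the counts over all genes are given with them (45 cells) and without them (43 cells), and a call on a list member that was lost without them is stated beside it. Ranges, medians and shares of single cells at P14 are over the 43 cells, and means and differences are over all 45 unless stated. Among the 43 cells, 3 others had over 1000 CPM of microglial genes beside their ganglion cell markers, as did 1 cell at P12 and 1 at P10.

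**Figure D1:**
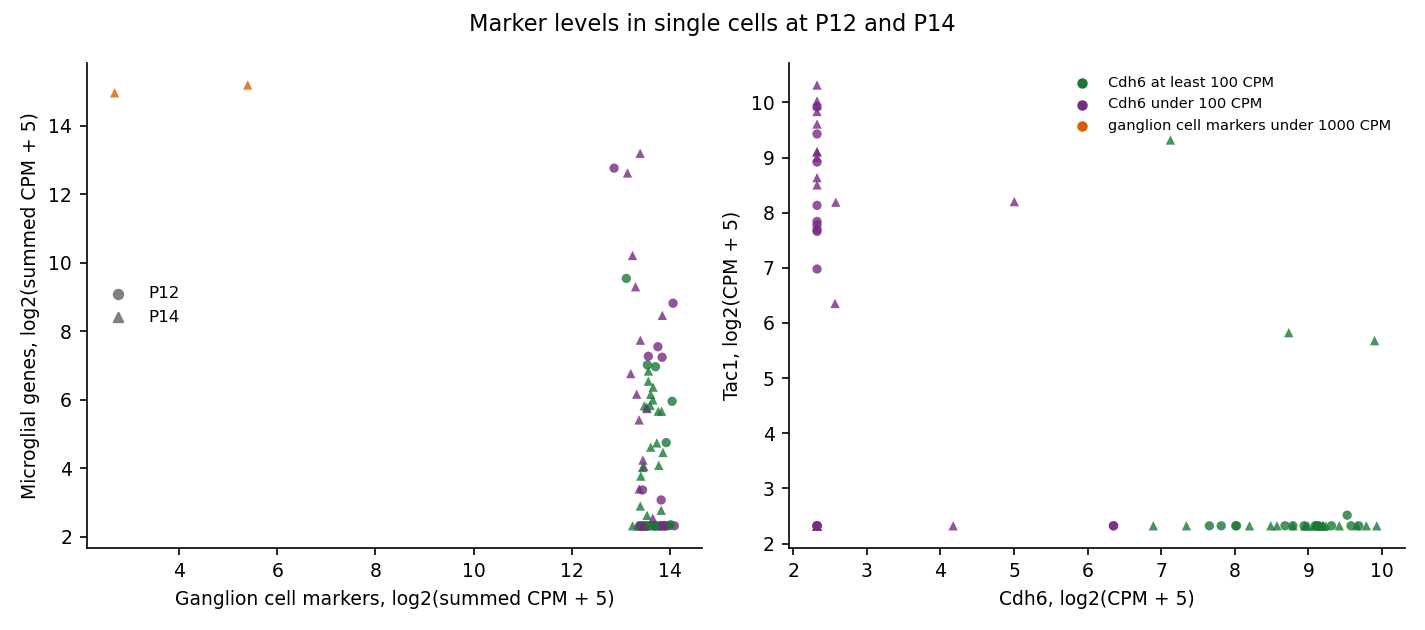
Marker levels in single cells at P12 (circles) and P14 (triangles), on log2(CPM + 5) axes, with summed ganglion cell against summed microglial genes on the left and Cdh6 against Tac1 on the right. The 2 orange triangles at P14 lie at 1.41 and 37.1 CPM of ganglion cell markers, and cells with Cdh6 (green) and cells without it (purple) lie along different axes on the right.

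The P12 pool stood apart from its neighbours in several measures taken over all genes. Each P12 cell had fragments of a median of 5738 genes (lowest 2655, highest 7624, SD over cells 1275), against 8659 in the 43 cells at P14 (lowest 5518, highest 9928, SD 1189), 8608 in all 45, and 6586 at P10. After each cell was thinned to 200000 fragments, with 1 shallower P12 cell left out, the medians were 5094 at P12, 7748 at P14 and 5902 at P10. Summed mitochondrial transcripts had a median of 30992 CPM at P12, 23935 at P14 and 22354 at P10. The fragment-weighted GC content of the transcripts per cell had a median of 48.97% at P12, 50.3% at P14 and 49.7% at P10. The repeat-rich model Gm10800 was present in all 29 P12 cells, with a mean of 2773 CPM against 20.5 at P10 and 6.10 at P14, and with over 1000 CPM in 10 P12 cells. Y-linked transcripts without Xist were found in 44 of 45 cells at P14, 20 of 29 at P12 and 44 of 49 at P10. Of the other P12 cells 7 had neither signal, 1 had Xist alone and 1 had both. P4 had 20 cells with Y-linked transcripts alone and 20 with Xist. The part of these features in the differences was not tested, and the level at P10 is given beside that at P12 for most genes called below.

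**Figure D2:**
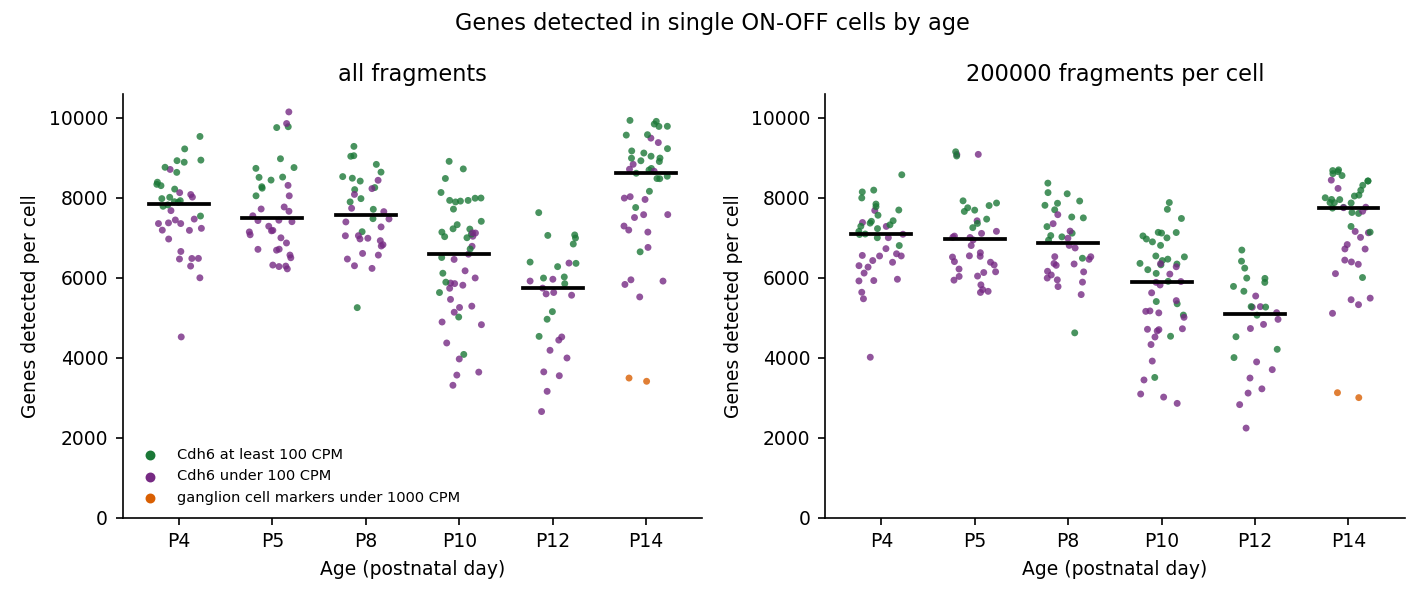
Genes detected in each ON-OFF cell by age, with all fragments (left) and after thinning to 200000 fragments per cell (right); points are cells coloured by their Cdh6 level, and bars are medians. The P12 median of 5738 genes is the lowest of the 6 ages and the P14 median of 8608, over all 45 cells, the highest.

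The ON-OFF cells of each age could be divided by 1 gene, Cdh6. Cdh6, a cadherin known as a marker of ON-OFF direction-selective cells (chromosome 15, 13028701 to 13173675, minus strand, GRCm38), was at or above 100 CPM in 14 of 29 cells at P12 (48.3%, exact Clopper-Pearson 95% interval 29.4 to 67.5%). At P14 it was so in 24 of 43 cells (55.8%, 39.9 to 70.9%), and at P10 in 26 of 49 (53.1%, 38.3 to 67.5%). The 3 intervals overlap and cover counting error only. The level of 100 CPM was chosen after the values were seen, and 3 cells lay between 50 and 200 CPM at each of P10, P12 and P14. The 2 sets are ranges of 1 gene and are given no cell type name.

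Cartpt, a neuropeptide gene that also marks ON-OFF direction-selective cells, was at or above 100 CPM in 14 of 14 cells with Cdh6 at P12 and 22 of 24 at P14. Without Cdh6 it was so in 2 of 15 cells at P12 and 0 of 19 at P14. The AP-2 factor Tfap2d reached 100 CPM in 12 of 14 and 13 of 24 cells with Cdh6, and in 0 of 15 and 0 of 19 without. Collagen gene Col25a1 had means of 143 and 123 CPM with Cdh6 at P12 and P14, against 21.3 and 0.558 CPM without. The cells without Cdh6 carried other genes. Tac1, which encodes the substance P precursor, reached 100 CPM in 9 of 15 of them at P12 and 12 of 19 at P14, and in 0 of 14 and 1 of 24 cells with Cdh6. Cpne4, a copine gene, is also on the list of ON-OFF markers. It had means of 690 and 565 CPM without Cdh6 at P12 and P14, against 62.2 and 106 CPM with it. Calb2, a further member, had 3116 and 5652 CPM without and 2803 and 2483 CPM with Cdh6. Members of this list thus went both ways. Whether the cells of both sets are of the labelled type was not tested, and values over all cells of an age mix the sets. The sorting receptor Sorcs1 had 156 and 151 CPM without and 0 and 27.2 CPM with Cdh6. The forkhead factor Foxp2 had 54.5 and 48.5 CPM without and 0 and 1.44 CPM with Cdh6. Mnx1 itself had low means of 4.62 and 2.52 CPM with and without Cdh6 at P12, and 2.39 and 2.45 CPM at P14. Of 8927 genes measured in both sets at all 6 ages, 33 (0.370%) were at least 2-fold higher with Cdh6 at each age, Cdh6 left out, and 49 (0.549%) at least 2-fold lower. These 49 include the microglial genes C1qb and Ctss. At each age the cell of the sets richest in microglial transcripts was without Cdh6, with a summed 6920 CPM at P12 and 9345 CPM at P14. The medians over cells of both sets were 0 CPM at P12 and 19.5 CPM at P14. How far the higher means of C1qb and Ctss rest on few such cells was not tested. The sets differed in detected genes, with medians of 6316 with and 4518 without Cdh6 at P12, and 8986 and 7573 at P14.

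The division bears on the control for detected genes. Of 12 pairs of P12 and P14 cells matched on detected genes within 500, 7 of the P12 cells but 1 of the P14 cells carried Cdh6, and 2 of the P14 cells were those without ganglion cell markers. Mean Cartpt in these pairs was 2609 CPM at P12 and 12.6 CPM at P14. The matched cells of the 2 ages thus differed in their share with Cdh6, and the comparison was also made within each Cdh6 set. The part of this in the values of the matched cells was not tested.

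At P14 1357 of 11261 genes (12.1%) were at least 2-fold higher than at P12, and 777 (6.90%) at least 2-fold lower. Without the 2 cells these counts were 1179 (10.6%) and 790 (7.11%) of 11118 genes. Of all calls 63.6% were higher ones. With the mean over cells of log2(CPM + 5) this share was 96.9%, and with regression on detected genes and glial and microglial transcripts 53.5%. Among neighbouring ages, 18.9% of genes differed 2-fold between P10 and P12 and 18.95% between P12 and P14, against 7.57% to 10.5% for the earlier steps. Between P10 and P14, which skips the P12 pool, 10.6% of genes differed 2-fold. Among the 11261 genes 695 (6.17%) were 2-fold higher and 406 (3.61%) lower at P14 than at P10, or 483 and 423 without the 2 cells. Transcripts of the higher genes had a median GC content of 51.98%, those of the lower genes 46.9% and those of all genes tested 49.9%. Across genes, the Spearman correlation of the difference with GC content was -0.21 from P10 to P12, 0.20 from P12 to P14 and -0.01 from P10 to P14, over genes that share the same libraries. P14 was at least 2-fold above both P12 and P10 for 356 genes (3.16%) and 2-fold below both for 116 (1.03%), or 181 (1.63%) and 121 (1.09%) without the 2 cells.

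Within the cells with Cdh6, 1420 of 10685 genes (13.3%) were 2-fold higher at P14 than at P12 and 798 (7.47%) lower. Within the cells without it, 2334 of 11163 (20.9%) were higher and 1641 (14.7%) lower. Of 9748 genes measured in both sets, 425 (4.36%) were 2-fold higher in both, 160 (1.64%) lower in both and 223 (2.29%) differed 2-fold in opposite ways. P14 stood 2-fold above both P12 and P10 in both sets for 31 genes (0.318%) and 2-fold below for 17 (0.174%). These genes, chosen by this pattern, are described below with no test. Leaving out 2 unnamed gene models, 24 of the 31 and 13 of the remaining 15 also lay beyond every earlier age. P12 and P10 were part of the choice and no share over all genes is given, so these counts are a description only. In the pairs matched on detected genes 26 of the 31 and 11 of the 15 kept their sign, with Sox11, Sept2, Ccdc85c and Zcchc12 turned at 0.03, 0.99, 0.01 and 0.05. After regression on detected genes and on glial and microglial transcripts 30 of the 31 and 15 of the 15 kept their sign. Of them 6 and 7 remained at 2-fold. This regression used log2(CPM + 5) of single cells, not of pool means. The mean over cells of log2(CPM + 5), with no covariate, left 15 of the 31 and 5 of the 15 at 2-fold. All these settings reuse cells by which the genes were chosen, so kept signs are no independent support.

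**Figure D3:**
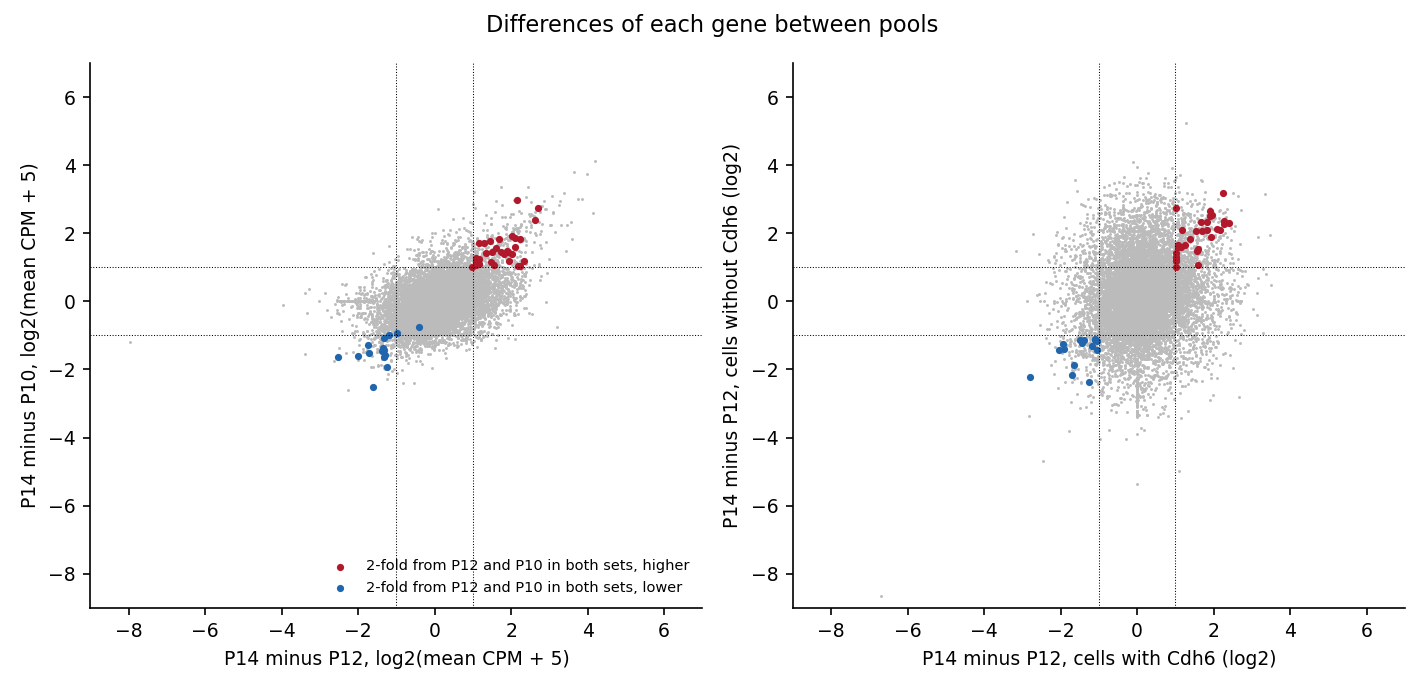
Difference of each gene between pools on the log2(mean CPM + 5) scale: P14 against P12 and against P10 over all cells (left), and P14 against P12 in cells with and without Cdh6 (right), with dotted lines at 2-fold. Coloured points are the 31 genes higher and 15 genes lower at P14 than at P12 and P10 in both sets.

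Pou4f1, which encodes the POU-domain factor Brn3a and is on the list of ganglion cell genes (ENSMUSG00000048349.9, chromosome 14, 104461676 to 104467999, minus strand, GRCm38), was lower at P14 in both sets. Its lowest, median and highest levels per cell were 73.2, 1190 and 6907 CPM at P12 and 14.8, 425 and 2887 CPM at P14. The ranges overlapped, and the gene was detected in every one of the 29 and 43 cells. Pool means were 1605 CPM at P10, 1494 at P12 and 597 at P14, a log2 difference of -1.32 from P12 and -1.42 from P10. With Cdh6 the means at P10, P12 and P14 were 650, 668 and 311 CPM, and without it 2684, 2265 and 1021 CPM. The P14 level was thus the lowest of these 3 ages in either set, while the sets kept their order at each age. At P4, P5 and P8 the means were 505, 380 and 390 CPM with Cdh6 and 1054, 1175 and 1073 CPM without it. Without Cdh6 the P14 mean was thus near those of P4 to P8, after higher means at P10 and P12. With Cdh6 it lay below those of P4 to P8.

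Sox11, a SOX factor of young neurons (chromosome 12, 27334264 to 27342574, minus strand), had lowest, median and highest levels of 0, 57.3 and 1068 CPM at P12 and 0, 5.90 and 415 CPM at P14. Its means with Cdh6 were 72.8, 65.9 and 13.5 CPM at P10, P12 and P14, and without it 369, 154 and 61.3 CPM. Dcx, the microtubule protein doublecortin of migrating and growing neurons, had means of 48.5, 21.8 and 12.8 CPM with and 211, 174 and 70.7 CPM without Cdh6 at the same ages. Dcx was lower at each step in both sets, though its difference from P12 with Cdh6 was below 2-fold, at -0.59, and with the regression over all cells it was 0.26.

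Other genes lower at P14 in both sets and detected in at least 75% of the cells of the higher pools were the septin Sept2, the lipase-family gene Abhd2, the alanyl-tRNA synthetase gene Aars and Ccdc85c. Sept2 had a median of 220 CPM at P12 and 81.8 at P14, Abhd2 58.7 and 19.8, Aars 231 and 120, and Ccdc85c 127 and 50.7. Their means at P10 were 283, 63.8, 281 and 147 CPM, against 139.5, 23.2, 144.5 and 67.5 CPM at P14. Each of these medians at P12 was above that at P14, with overlapping ranges. Less widely detected were Vcl, Ddx51, Fgd1, Zfp110, Tmem178, Pcdhb20, Ado, Zcchc12 and Uvssa. Vcl, the gene of the adhesion protein vinculin, shows what the 2 doubtful cells add, as its P14 mean was 15.4 CPM with them and 2.02 CPM without them, against 22.2 CPM at P12.

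Map2k1, the kinase MEK1 of the ERK pathway (chromosome 9, 64185770 to 64253631, minus strand), was higher at P14 in both sets. Its lowest, median and highest levels were 0, 12.1 and 669 CPM at P12 and 0, 257 and 723 CPM at P14, and it was detected in 19 of 29 and 42 of 43 cells. Its means with Cdh6 were 98.1, 107 and 242 CPM at P10, P12 and P14, and without it 57.1, 92.9 and 291 CPM. The 4 earlier pools from P4 to P10 lay between 70.4 and 105 CPM, so that the P14 mean of 280 CPM was the highest of the 6 ages.

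Tppp3, a tubulin-binding protein, had lowest, median and highest levels of 0, 377 and 925 CPM at P12 and 149, 858 and 1634 CPM at P14. Grina, a membrane protein first described with the NMDA receptor, had 0, 107 and 423 CPM at P12 and 63.3, 466 and 863 CPM at P14. Both genes were detected in 43 of 43 cells at P14, and in 27 and 26 of 29 cells at P12. Their P10 means of 370.3 and 198 CPM lay below those at P14, 851 and 443 CPM. Pef1, a calcium-binding penta-EF-hand protein, had a median of 0 CPM at P12 and 110 at P14, with 11 of 29 and 38 of 43 cells detected. The ubiquitin-conjugating enzyme gene Ube2q1 had medians of 0 and 67.9 CPM, the zinc finger gene Zfp467 0 and 39.04, the kinase-complex gene Tprkb 0 and 42.2, the C-type lectin gene Clec2l 36.3 and 193, and the deubiquitinase gene Josd2 0 and 21.2. All these genes have fewer zeros at P14, where more genes were detected per cell as well, and the share of this in their differences was not tested. CT010467.1, a multicopy model of the ribosomal RNA type whose reads may be shared with its copies, had means of 35725 CPM at P10, 35487 at P12 and 75239 at P14, but 86508 at P4.

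The other genes of this pattern were found in fewer cells. Ndnf, a secreted neurotrophic factor, had a fragment in 1 of 29 cells at P12 and 5 of 43 at P14, with a mean of 0.222 and 28.7 CPM. The prokineticin receptor gene Prokr1 had a fragment in 8 of 43 cells at P14 and in 0 of 29 at P12, which allows a share of cells with a fragment of up to 10.3%. Rab39 and Wls, the cargo receptor for Wnt proteins, also had 0 of 29 cells at P12, with the same limit, and 11 and 7 of 43 cells at P14. Il34, the ligand of the microglial receptor Csf1r, was detected in 3 of 29 cells at P12 and 22 of 43 at P14, with means of 2.51 and 19.8 CPM. Cplx3, a complexin, had means of 2.64 and 23.2 CPM in 3 and 11 cells. The cadherin gene Cdh11 had means of 11.1, 2.33 and 31.8 CPM at P10, P12 and P14, but 32.7 at P4, so P14 was not beyond every earlier age. The rest were Urb2, Ifit2, Lhfpl2, Zfp28, Bcl6, Pnpla2, Poli, Zfp825, Hr, Hus1, Ippk, Hmgxb4, Mtfmt and Enox1.

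Fgf1, a growth factor, was named after its values were seen. Its means were 5.27, 13.9 and 98.4 CPM with Cdh6 at P10, P12 and P14, and 24.4, 62.01 and 126 CPM without it. Over all cells it had a fragment in 6 of 49 cells at P10, 7 of 29 at P12 and 29 of 43 at P14, with means of 14.2, 38.8 and 106 CPM. From P4 to P8 its means lay between 0.967 and 4.599 CPM. Its difference from P12 was 2.45 with Cdh6 and 0.97 without it, just short of 2-fold, so Fgf1 is not among the 31 genes.

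**Figure D4:**
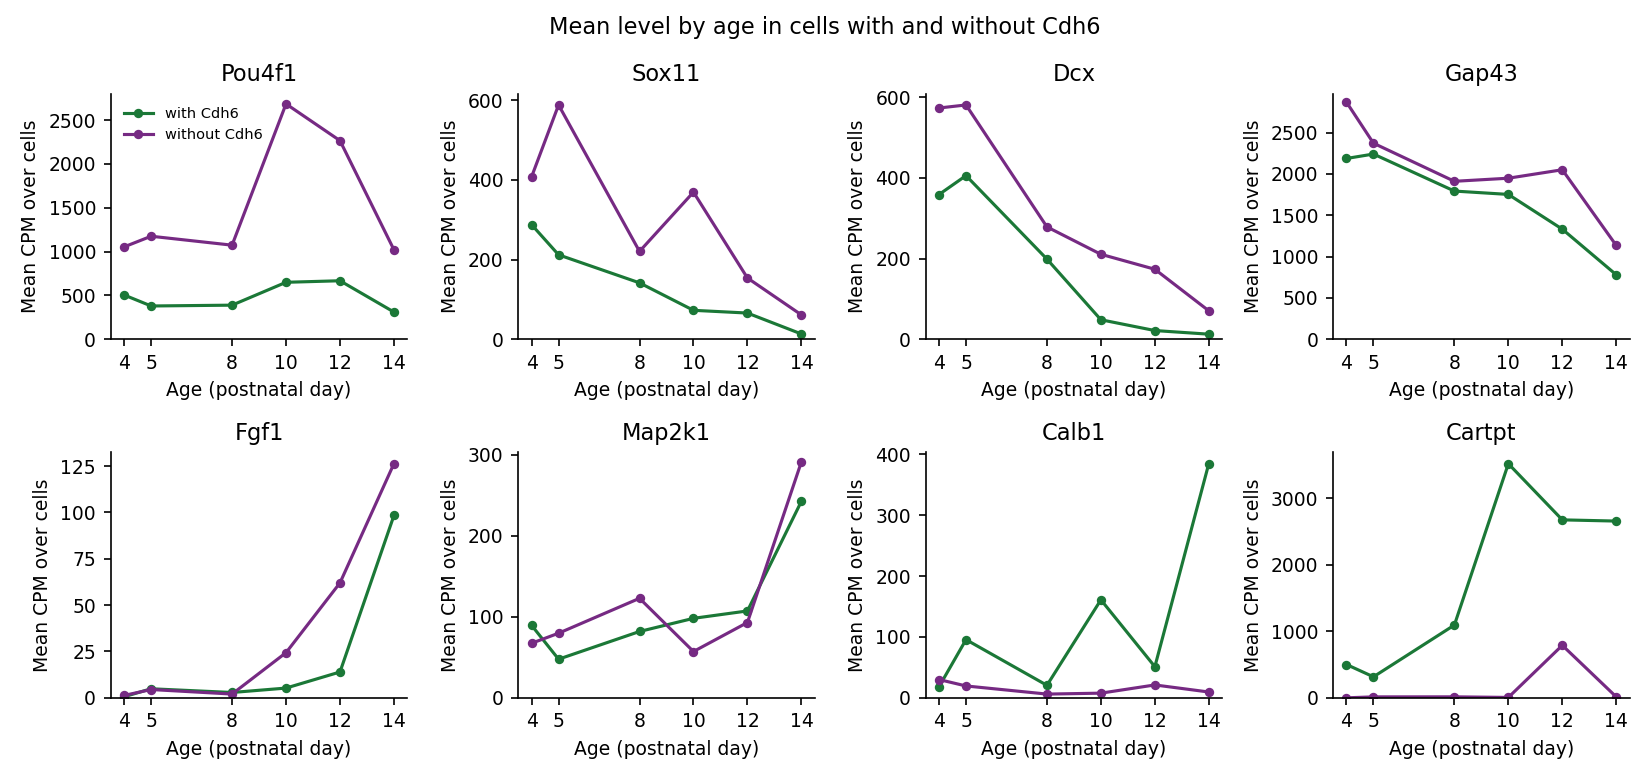
Mean CPM over cells by age for 8 genes, in cells with Cdh6 (green) and without it (purple), with 1 pool per set and age and no error bar for lack of replicates. At P14 Pou4f1 stood at 311 and 1021 CPM and Sox11 at 13.5 and 61.3 CPM, each below P10 and P12, while Map2k1 reached 242 and 291 CPM.

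Most other markers of the ganglion cell class were within 2-fold of P12 and P10. Of the 16 ganglion cell genes 0 were 2-fold higher and 1, Pou4f1, lower than at P12. Against P10 0 were 2-fold higher and 2 lower, Pou4f1 and Gap43. Counts of list members are read against the shares over all genes, 12.1% higher and 6.90% lower. The median difference of the 16 genes was -0.18 from P12 and -0.23 from P10, beside 0.08 and 0.01 over all genes tested, and it was -0.46 in the matched cells and 0.02 with the mean over cells of log2(CPM + 5). Nefl had means of 3356, 3837 and 2985 CPM at P10, P12 and P14, and the synuclein gene Sncg 1457, 1521 and 2165 CPM. Slc17a6, the vesicular glutamate transporter by which ganglion cells signal, had 1002, 1380 and 961 CPM. Of 9 ON-OFF markers measured 2 were higher and 1 lower than at P12. Fibcd1 had means of 23.2, 1.63 and 26.4 CPM at P10, P12 and P14, so that P12 was the lowest of these ages. With Cdh6 it reached 100 CPM in 2 of 26 cells at P10, 0 of 14 at P12 and 4 of 24 at P14. At P5 its means were low too, at 3.19 CPM with and 1.36 CPM without Cdh6. In the matched cells the difference of Fibcd1 from P12 was -0.84. Tfap2d had 116, 132 and 57.8 CPM, and its difference was 0.88 within the cells without Cdh6.

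Calb1, the calcium-binding protein calbindin and an ON-OFF marker (chromosome 4, 15881264 to 15908064, plus strand), was 2-fold higher at P14 than at P12 and P10 over all cells and in the cells with Cdh6. There its means were 161, 51.2 and 385 CPM at P10, P12 and P14, and it reached 100 CPM in 13 of 26, 2 of 14 and 13 of 24 cells. Without Cdh6 its means were 7.68, 21.2 and 9.56 CPM. The cells without Cdh6 thus held little Calb1 at any of these ages, and in the matched pairs, of which 1 P14 cell carried Cdh6, the difference was -3.01. Calb2, calretinin, had means of 2803 and 2483 CPM with Cdh6 at P12 and P14, and 3116 and 5652 CPM without.

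Several genes of young neurons were lower at P14. Of 23 such genes 0 were 2-fold higher and 4 lower than at P12, namely Dcx, Cd24a, Sox11 and the polysialyltransferase gene St8sia4, and 3 of the 4 were also 2-fold lower than at P10, all but St8sia4. The list's median difference was -0.64 from P12 and -0.68 from P10, beside 0.08 and 0.01 over all genes, and -0.59 with and -0.44 without Cdh6. It was -0.37 in the matched cells, -0.19 in matched cells without the 2 doubtful ones and -0.35 with the mean over cells of log2(CPM + 5). St8sia4 turned to 0.18 with Cdh6, 0.79 in the matched cells, 0.31 with the regression, 0.63 in sequencing run 2 and 0.05 with the mean of log2 values. Sequencing runs are inferred from library numbers here and below, as no label names them. Cd24a, a surface glycoprotein of young neurons, had means of 714 CPM at P4, 74.3 at P10, 47.7 at P12 and 18.8 at P14. Gap43, the growth-cone protein, had lowest, median and highest levels of 877, 1586 and 5095 CPM at P12 and 296, 946 and 2281 CPM at P14, a difference of -0.92. Stmn2, a tubulin regulator of growing axons, had 1087, 2261 and 4437 CPM at P12 and 779, 1303 and 1966 CPM at P14, a difference of -0.91. The P10 means of Gap43 and Stmn2, 1844 and 2011 CPM, lay above their P14 means of 896 and 1253 CPM. Both were just short of 2-fold from P12 and were detected in all cells, and Gap43 was 2-fold below P10. The tubulin gene Tuba1a, with means of 2357 and 2232 CPM, and Stmn1, with 612 and 653 CPM, differed little between these ages.

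Synaptic and cytoskeletal genes showed few differences. Of 29 synaptic vesicle genes 1 was higher, Rab3c (means of 154, 79.1 and 176 CPM at P10, P12 and P14), and 1 lower, the release factor gene Unc13a (49.4, 59.4 and 26.7 CPM). Unc13a was within 2-fold without the 2 doubtful cells and at 0.19 with the authors' FPKM values. The list's median difference was 0.13, with -0.57 in the matched cells and 0.64 with the mean over cells of log2(CPM + 5). Of 21 neurofilament and node genes 1 was higher, Prph, the intermediate filament peripherin, with 2.92 CPM at P12 and 15.95 at P14 and a fragment in 1 of 29 and 6 of 43 cells, and a log2 difference of -0.15 with the regression. Map1b had means of 9309, 6876 and 4503 CPM at P10, P12 and P14. Of 22 postsynaptic scaffold genes Camk2a, the alpha subunit of calcium/calmodulin kinase II, was higher, with means of 52.6, 31.95 and 102 CPM, and Dlgap2 was lower at low levels, with 5.85, 11.1 and 2.83 CPM, though its difference was 0.48 with Cdh6 and 1.11 in the matched cells. Camk2a was detected in 16 of 29 cells at P12 and 41 of 43 at P14.

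Among 25 glutamate receptor genes 5 were 2-fold higher than at P12 and 1 lower, and 0 of these 6 were 2-fold from P10. The kainate receptor genes Grik2 and Grik3 had means of 24.2, 1.98 and 10.97 CPM and of 71.8, 16.6 and 42.7 CPM at P10, P12 and P14. Grm8, Grid1 and Cacng3 had 25.7, 3.80 and 37.7 CPM, 25.4, 4.58 and 28.6 CPM, and 124, 66.6 and 140 CPM. In these 5 genes P12 was the low point between P10 and P14. Grin3a, an NMDA receptor subunit, had 53.5, 177 and 54.4 CPM, so P12 was the high point. Of 19 GABA and glycine receptor genes Gabra4 and Gabrb2 were higher, again with low P12 means of 15.7 and 8.09 CPM between P10 means of 48.9 and 47.5 CPM and P14 means of 39.6 and 39.3 CPM. Gabra3 was lower than at both ages, with 25.2, 18.1 and 4.55 CPM, but its difference from P12 was 0.60 in sequencing run 1 and 0.38 in the cells without Cdh6. Cacng3 and Gabra4 were at -1.07 and -1.68 in the matched cells. Of 9 acetylcholine receptor genes 1 was higher, the muscarinic receptor gene Chrm2, which had a mean of 17.3 CPM at P14 from 3 of 43 cells, with 40.96 CPM in the cells without Cdh6 and 0.0401 CPM in those with it. The nicotinic subunit genes Chrnb3 and Chrna6 had means of 570 and 582 CPM and of 430 and 535 CPM at P12 and P14.

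Among the sodium channel genes and their partners Fgf14 was lower, with 56.6, 66.4 and 26.7 CPM at P10, P12 and P14. Of 35 potassium channel genes 3 were higher than at P12, Kcnab1, Kcnj3 and Kcnt1, and 2 lower, Kcnk10 and Kcnn3. None of these 5 differed 2-fold from both P12 and P10 in the same direction, and Kcnn3 had a fragment in 0 of 49 cells at P10 (up to 6.12% of cells allowed), 16.6 CPM at P12 and 5.33 CPM at P14. Kcnk10 and Kcnn3 turned to 1.36 and 0.80 in the matched cells. Of 19 calcium and HCN channel genes Cacna1e and Cacnb2 were higher and Trpc1 lower. Cacna1e had 42.8, 5.77 and 19.9 CPM. Cacnb2 had a P14 mean of 16.1 CPM with and 9.85 CPM without the 2 doubtful cells. Of 12 pump and exchanger genes 1 was higher, the sodium-calcium exchanger gene Slc8a3 (36.3, 16.5 and 49.1 CPM), detected in 7 of 29 cells at P12 and 39 of 43 at P14. The sodium pump gene Atp1b1 had 1572 and 2050 CPM at P12 and P14.

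Of 15 calcium-binding genes 3 were higher than at P12, Calb1, Pvalb and Caln1, and Calb1 and Pvalb were higher than at P10 too. Pvalb, parvalbumin, had means of 1.40, 3.21 and 15.7 CPM at P10, P12 and P14 and a fragment in 2 of 49, 3 of 29 and 17 of 43 cells. It was higher in cells without Cdh6, with 30.8 CPM at P14 against 5.14 CPM with Cdh6. Caln1 had 92.8, 50.5 and 120 CPM.

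Calls among wiring genes were few. Of 31 axon guidance genes 2 were higher than at P12, the netrin receptor gene Dcc (5.85, 0.770 and 15.8 CPM) and Sema4a (28.4, 3.80 and 19.3 CPM), and 0 lower. Of 57 adhesion genes 4 were higher, Cdh1, Cdh11, Lrrtm3 and Ntng2, and 7 lower, Cdh10, Cdh20, Cntn6, Chl1, Nrxn3, Cntnap4 and Tenm3. Among the 7, Chl1 and Tenm3 were lower than at P10 too. In the matched cells Cdh1, Cdh11 and Dcc turned to -0.28, -0.29 and -0.46. Chl1 was at 0.15 with the regression, Cntnap4 at 1.20 in cells with a fragment of Mnx1, and Cdh10 and Cdh20 at 0.07 and 0.42 in sequencing run 1. Tenm3, a teneurin that guides the mapping of ganglion cell axons, had lowest, median and highest levels of 0, 78.5 and 443 CPM at P12 and 0, 5.93 and 175 CPM at P14. Its means with Cdh6 were 79.3, 59.9 and 29.6 CPM, and without it 116, 174 and 24.1 CPM. Nrxn3, a neurexin, had means of 279, 368 and 156 CPM at P10, P12 and P14, and Chl1 75.4, 66.01 and 27.5 CPM.

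Of 44 transcription factor genes 7 were higher than at P12, among them Irx2, Irx4, Mef2c, Mef2d and Meis2, and 7 lower, Pou4f1, Tfap2d, Ebf2, Tbr1, Sox11, Nfib and Rorb. Of the genes named here, Meis2 was also 2-fold above P10, as was Mef2c with the 2 doubtful cells but not without them, and Pou4f1, Tbr1 and Sox11 were 2-fold below it. Nfib turned to 0.50 in the matched cells and Rorb to 0.25 with the regression. Meis2 had 48.7 CPM at P14 from 4 of 43 cells, with a highest cell of 1180 CPM. Mef2d, a MEF2 factor of activity-dependent transcription, had lowest, median and highest levels of 0, 0 and 119 CPM at P12 and 0, 73.2 and 342 CPM at P14, with means of 48.3 at P10, 13.1 at P12 and 83.8 at P14. Irx4 had means of 46.02, 1.76 and 45.4 CPM, so P12 alone was low. Rorb, a nuclear receptor, had 223, 243 and 110 CPM, and Tbr1 9.502, 12.5 and 1.41 CPM.

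Immediate and late genes of neuronal activity are given apart. Of 6 immediate-early genes 4 were 2-fold higher at P14 than at P12, Fos, Egr1, Dusp1 and Btg2, and 0 lower. The median of the list was 1.69 from P12, 1.12 without the 2 doubtful cells and 0.46 from P10. It was 0.47 without the cells richest in glial and microglial transcripts, 0.53 with the mean over cells of log2(CPM + 5) and 0.08 in matched cells without the doubtful ones. Fos had means of 51.5, 11.1 and 69.9 CPM at P10, P12 and P14, or 53.4 CPM at P14 in the 43 cells, and a fragment in 20 of 49, 5 of 29 and 15 of 43 cells. Egr1 had 31.7, 9.24 and 47.5 CPM, and 23.3 CPM at P14 without the 2 cells, where it was within 2-fold of P12. Within the cells with Cdh6 Egr1 was at 13.6 and 7.53 CPM at P12 and P14. Of 8 genes of early stress 6 were higher, the same 4 with Ier3 and Atf3. Atf3 had 11.4 CPM at P14 over the 45 cells and 0.183 CPM over the 43, so that without the 2 cells 4 of the 8 were higher. Of 12 late activity genes 0 were 2-fold from P12 either way, with a median of 0.24 from P12 and -0.25 from P10, and of -0.19 in the matched cells. Scg2 had 722, 758 and 437 CPM, Nrn1 201, 192 and 259 CPM, and Bdnf, the neurotrophin, 44.1, 37.8 and 39.7 CPM.

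Of 15 clock genes 2 were higher, Nr1d2 (66.3, 44.7 and 109 CPM at P10, P12 and P14) and Ciart (16.4, 8.86 and 38.5 CPM), and 2 lower, Cry1 and Rorb. Cry1 was within 2-fold without the 2 doubtful cells and at 0.13 in run 2, and Nr1d2 was at -0.26 in the matched cells. No source used here gives the hour at which retinas were taken. Among the neuropeptide and trophic genes Igf1 was higher, with 168, 103 and 242 CPM at P10, P12 and P14, or 160 CPM in the 43 cells, which was within 2-fold of P12.

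Genes of metabolism and upkeep were mostly within 2-fold. Of 19 glycolysis genes 2 were higher, Tpi1 (518, 559 and 1184 CPM at P10, P12 and P14), which was also 2-fold above P10, and the glucose transporter gene Slc2a1 (19.5, 14.7 and 39.2 CPM), which was within 2-fold without the 2 doubtful cells. Tpi1 had lowest, median and highest levels of 0, 467 and 2133 CPM at P12 and 116, 1130 and 2594 CPM at P14, and its step was larger with Cdh6 (509 to 1518 CPM) than without (605 to 843 CPM), with no test of that difference. Of 29 nuclear genes of oxidative phosphorylation 1 was higher, Sdhc (62.2, 36.7 and 91.4 CPM), and Atp5b and Atp5a1 had 1171 and 1541 CPM, and 596 and 667 CPM, at P12 and P14. Of 41 ribosomal protein genes 1 was lower, Rpl22 (26.6, 71.7 and 29.4 CPM, and a log2 difference of 0.01 in the matched cells), while Rpl4 and Rps3 had 319 and 413 CPM, and 243 and 244 CPM. Among the cholesterol synthesis genes Insig1 was lower (137, 380 and 123 CPM). It was high at P12 alone, in cells with lowest, median and highest levels of 48.5, 382 and 828 CPM against 12.3, 126 and 308 CPM at P14. Of 15 chaperone genes Dnajb1 was higher (64.4, 14.2 and 66.3 CPM), and Hspa8 and Hsp90ab1 had 2889 and 2641 CPM, and 1503 and 1106 CPM. Of 6 nuclear RNAs Neat1 was higher, at 19.4 CPM with and 2.79 CPM without the 2 doubtful cells against 0.943 CPM at P12, so that the call was lost without them. Malat1 had 5696, 2858 and 5619 CPM and Meg3 5072, 2640 and 3950 CPM, both with their lowest value at P12. Of 10 mitochondrial transcripts mt-Cytb was lower, with 11281, 19573 and 8213 CPM, while mt-Co1 had 5126, 4096 and 7732 CPM.

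**Figure D5:**
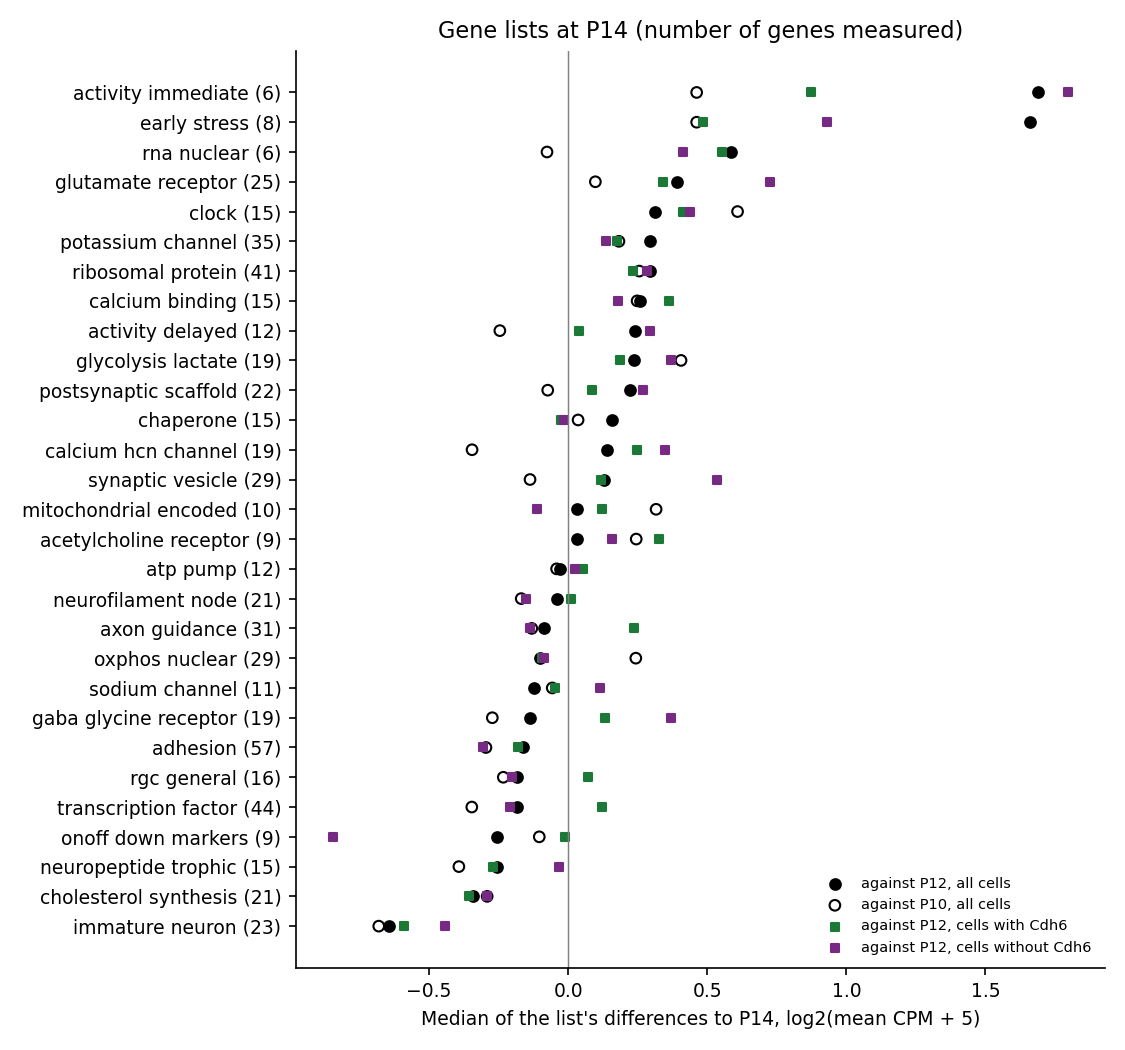
Median difference of the genes of each list between P14 and an earlier pool, on the log2(mean CPM + 5) scale, with the number of genes measured in brackets; filled and open circles are against P12 and P10 over all cells, and squares are against P12 in cells with and without Cdh6. The immature neuron list lies left of 0 in all 4 readings, from -0.44 to -0.68, while the immediate-early list goes from 1.69 against P12 to 0.46 against P10.

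Markers of other cells differed between the ages too, and their part in the results above was not tested. Of 12 microglial genes 11 were 2-fold higher at P14 than at P12 and 0 lower, with a median of 2.44, which was 0.80 without the 2 doubtful cells, 0.01 without the cells richest in glial and microglial transcripts and -0.29 within the cells with Cdh6. Among the 11 were C1qa, C1qb, C1qc, Cx3cr1, Csf1r, Tyrobp, Aif1, P2ry12, Tmem119 and Ctss. Without the 2 doubtful cells 4 were higher, C1qb, Aif1, P2ry12 and Tmem119. C1qb, a complement subunit of microglia, had 13.6 CPM at P12 and 262 CPM at P14, or 48.5 CPM in the 43 cells, where 6 cells had a fragment. The summed microglial level had a median of 0 CPM at P12 and 19.5 at P14, so most cells of either age held few of these transcripts. Of 6 Mueller glial and astrocyte genes 1 was higher, Apoe, with 82.1 CPM at P12, 847 at P14 and 172 in the 43 cells, while Clu had 256 and 198 CPM. Of 7 rod genes Sag, Gnat1, Pdc and Rp1 were higher and Gnb1 lower, and the list's median of 1.06 became -0.54 without the 2 cells, where Sag alone was higher. Gnb1, a G protein subunit that ganglion cells express too, had 6335, 7485 and 3261 CPM at P10, P12 and P14. Among the bipolar genes Trpm1 and Pcp2 were higher, and of 1 cone gene measured, Gngt2, though not without the 2 doubtful cells. Of 3 amacrine genes 0 were higher or lower, with Pax6 at 374 and 243 CPM at P12 and P14. Of 2 oligodendrocyte genes Cnp was lower, at 24.9 and 8.56 CPM, and Mbp had 18.7 and 21.3 CPM. Of 2 horizontal cell genes Calb1 was higher and Sept4 had 62.3 and 85.6 CPM. Of 2 vascular genes, Rgs5 and Pecam1, 0 were 2-fold from P12. Of 3 cell cycle genes Ccna2 was higher, and Pcna had 75.8 and 93.3 CPM and Mcm2 13.6 and 7.06 CPM. Of 4 sex-linked genes 0 differed 2-fold, with Ddx3y at 48.4 and 57.9 CPM and Eif2s3y at 44.5 and 51.1 CPM at P12 and P14.

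Genes with the largest differences from P12 were named by a rule that asked for a fragment in at least 25% of the cells of the higher pool and for the same sign after matching and after removal of the cells richest in glial transcripts. The 12 higher ones were Lpl, Mef2c, Plxnb2, Irx4, B2m, Syt9, Pik3ip1, Orai3, Lgals3bp, Arhgdia, Ptprm and Pdcd7. Orai3, a calcium channel of the plasma membrane, was detected in 8 of 29 cells at P12 and 34 of 43 at P14, with lowest, median and highest levels of 0, 0 and 59.1 CPM and of 0, 74.8 and 252 CPM. Its mean was 35 CPM at P10, 7.41 at P12 and 77.9 at P14, and its difference from P12 was 2.73 with and 2.68 without Cdh6. Arhgdia, an inhibitor of small GTPases, had medians of 0 and 152 CPM and was detected in 13 of 29 and 41 of 43 cells, with a P10 mean of 88.3 CPM and a P14 mean of 177 CPM. Pik3ip1 had 2 of 29 and 31 of 43 cells. For 4 of the 12 the 2 doubtful cells made most of the mean. Lpl, lipoprotein lipase, had 77.1 CPM at P14 with and 12.5 without them, Lgals3bp 37.8 and 6.57, and B2m, the shared chain of MHC class I, 163 and 55.02, and without them Lpl and Lgals3bp were below 2-fold, at 0.86 and 0.71. Mef2c, a MEF2 factor, had 52.3 CPM with and 19.02 without them, against 2.199 CPM at P12 and 19.4 CPM at P10.

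The 12 lower ones were Slc24a5, Zfp87, Tenm3, Rundc1, Pcdhb9, Slc39a11, Slc25a20, Cdkn1b, Lyrm4, Lrch2, Mrps31 and Ppp1r26. Lyrm4, a protein of iron-sulphur cluster assembly, was detected in 29 of 29 and 43 of 43 cells, with lowest, median and highest levels of 38.1, 700 and 2060 CPM at P12 and 2.98, 203 and 453 CPM at P14. Its P10 mean of 370 CPM lay between those of P12 (727 CPM) and P14 (196 CPM). Cdkn1b, the cell cycle inhibitor p27, had medians of 34.3 and 10.8 CPM and was detected in 27 of 29 and 40 of 43 cells, with means of 30.1, 60.98 and 13.1 CPM at P10, P12 and P14. Slc24a5, a potassium-dependent sodium-calcium exchanger, had means of 48.7, 93.4 and 11.01 CPM at P10, P12 and P14, with medians of 42.1 and 0.199 CPM at P12 and P14. Zfp87, Pcdhb9, Cdkn1b, Lyrm4, Mrps31 and Ppp1r26 were within 2-fold of P10 at P14.

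Genes whose level changed from P4 to P10 were followed into these ages, because their choice uses neither P12 nor P14. In limma, with age in days over the 4 pools from P4 to P10 and Benjamini-Hochberg adjustment over 11469 genes, 42 genes (0.366%) rose and 18 (0.157%) fell at an adjusted p of 0.05, and 1659 had an unadjusted p under 0.05. With no filter on low values limma called 0 rising and 0 falling genes of 25574, with 1670 at an unadjusted p under 0.05, so each call of the trend rests on that filter. Atp1b1 rose by 2.59 on the log2 scale from P4 to P10 (SE 0.24, limma adjusted p = 0.00359), and Cd24a fell by 2.94 (SE 0.38, limma adjusted p = 0.0203). The 42 rising genes, among them Nefl, Nefm, Nefh, the sodium channel subunit gene Scn2b, the oligodendrocyte-myelin glycoprotein gene Omg and Cartpt, had a median difference of 0.04 between P12 and P14 and 0.13 between P10 and P14, and 1 was 2-fold higher and 2 lower at P14 than at P12. Nefh had means of 101, 106 and 122 CPM at P10, P12 and P14, and Omg 142, 142 and 133 CPM. Of the 18 falling genes 14 were measured at P12 and P14. Their median difference was -0.42 from P12 and -0.74 from P10, 0 were 2-fold higher, 3 were 2-fold lower than at P12 and 6 than at P10, and 11 of 14 lay below P12. The median was -0.11 with and -0.29 without Cdh6. Jpt1, one of them, had means of 375, 267 and 168 CPM at P10, P12 and P14. Over all genes tested the median differences were 0.08 from P12 and 0.01 from P10, and 6.90% and 3.61% of genes were 2-fold lower. The P10 pool served in choosing the rising and falling genes, so their differences from P10 are not independent of the choice. The counts of the trend rest on 4 pools, and leaving out 1 pool gave from 17 to 281 rising and from 5 to 276 falling genes.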

How the data were processed

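Single cells of the HB9-GFP line were sequenced as polyadenylated RNA with 75 bp paired-end reads, per the labels' protocols. The submitters' processing notes name Cuffnorm and Cufflinks 2.2.1, the aligner HISAT2 2.1.0, R 3.5.1, SAMtools 1.3.1 and the mouse build GRCm38. The gene table the authors deposited holds a signal per gene and cell, fragments divided by a size factor, which ranged from 0.170 to 2.78 for the ON-OFF cells. This factor is the scale ratio in the authors' deposited table of cells. After multiplying by it 96.3% of positive values lay within 0.05 of a whole number, so no count model was used. The deposited FPKM values, scaled by length by the authors, served as an alternative. Of the 53374 genes 101 repeat a symbol, and 482 columns of other cells were not used.

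CPM per cell was taken over all named genes, which held 92.5% to 96.1% of the mapped mass. The trend from P4 to P10 was fitted on pool means with limma 3.58.1 in R 4.3.3 (trend and robust variance), with Benjamini-Hochberg adjustment at 0.05. Other steps used Python 3.11.15, NumPy 2.4.6, pandas 2.3.3, SciPy 1.17.1 and matplotlib 3.10.9, and the scripts were tested on simulated data. A gene counted as detected in a cell with at least 0.5 of a fragment. No label names a sequencing run. Runs 1 and 2 were inferred from the library numbers in the authors' table of cells, where the numbering restarts once. They may not be the true runs. Gene positions come from the deposited annotation and are 1-based.

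The members and the 42 gene lists were chosen with earlier results of these data known. Named genes are the 12 largest differences each way among genes 2-fold from P12, found in at least 25% of the cells of the higher pool and of the same sign and at least 0.5 (log2) with matched cells and without the cells richest in glial transcripts, plus the called members of each list and its 2 most abundant where fewer were called. Genes named for standing beyond P12 and P10 in both Cdh6 sets, Fgf1 and the genes that mark these sets were chosen after their values were seen. The erythrocyte and pigment epithelium lists had 0 genes at a level to be compared. Some genes that the naming rule gives are not reported here. Alternatives covered the pseudocount, filters, scaling, matching, regression, sequencing run and left-out cells.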

Additional observations from a re-analysis of the deposited data

How the results depend on the processing

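The difference between P14 and P12 rests on 1 pool per age, so no setting gives it a test, and the cause of each shift below was not tested. The 1357 genes at least 2-fold higher at P14 than at P12 became 331 with a pseudocount of 20, 554 among genes at 20 CPM or more, 2353 with the mean over cells of log2(CPM + 5), 2552 in cells matched on detected genes, 2195 in such cells without the 2 doubtful ones, 819 with the regression on detected genes and glial and microglial transcripts, 2037 and 2097 in sequencing run 1 and run 2, 2334 in cells without Cdh6 and 656 with P10 in place of P12. The 777 lower genes became 207 and 352 with the first pair of these settings, 76 with the mean over cells of log2(CPM + 5), 441 with the authors' FPKM values, 1692 and 1677 in the matched cells with and without the doubtful ones, 1600 in run 1 and 1641 without Cdh6. The 356 genes higher than at both P12 and P10 became 103 with a pseudocount of 20, 123 at 20 CPM or more, 560 with the mean of log2 values, 717 in run 2, 184 without cells over 1000 CPM of microglial genes, 181 without the 2 doubtful cells and 633 without Cdh6. The 116 lower ones became 268 and 20 with a pseudocount of 1 and 20, 66 at 20 CPM or more, 17 with the mean of log2 values, 53 with FPKM, 189 without the cells richest in glial and microglial transcripts, 191 in cells with a fragment of Mnx1, 270 and 269 in run 1 and run 2 and 359 without Cdh6. The median difference of all genes, 0.08, was 0.52 with the mean of log2 values and 0.17 with FPKM. Higher calls made up 63.6% of all calls, against 96.9% with the mean of log2 values and 53.5% with the regression. For the trend from P4 to P10 limma called 0 rising and 0 falling genes with no filter on low values (1670 at an unadjusted p under 0.05), 105 and 276 with the mean of log2 values, and from 17 to 281 rising and from 5 to 276 falling genes when 1 pool was left out.

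Of 211 named genes 48 changed sign under at least 1 of the settings, as did 2 of 33 lists. In cells with Cdh6 the values were the microglia list -0.29, the rod list -0.28, Aif1 -0.09, Apoe -2.72, C1qa -2.07, C1qc -1.27, Csf1r -1.06, Ctss -2.16, Cx3cr1 -0.34, Dlgap2 0.48, Egr1 -0.57, Gnat1 -0.28, Gngt2 -0.56, Kcnk10 0.76, Kcnn3 0.05, Nfib 0.70, Pdc -0.77, St8sia4 0.18 and Tyrobp -0.24. Without the cells richest in glial and microglial transcripts the values were the rod list -0.76, Aif1 -0.08, C1qc -0.08, Csf1r -0.17, Dlgap2 0.59, Gngt2 -0.42, Pdc -0.25 and Rp1 -0.76. In cells with a fragment of Mnx1 the values were the rod list -0.79, Cntnap4 1.20, Dlgap2 0.93, Pdc -0.19 and Rp1 -0.79. In run 1 alone the values were the rod list -0.87, Lgals3bp -0.09, C1qa -0.09, Cdh10 0.07, Cdh20 0.42, Ctss -0.18, Gabra3 0.60, Gnat1 -0.49, Gngt2 -0.38, Pdc -0.87 and Rp1 -0.72. Without the 2 doubtful cells the values were the rod list -0.54 and Rp1 -0.54. In cells without Cdh6 the values were the rod list -1.05, Cacng3 -0.07, Calb1 -0.85, Gabra3 0.38, Rp1 -2.34 and Tfap2d 0.88. In cells matched on detected genes the values were Lhfpl2 -0.76, Zfp28 -0.05, Zfp825 -0.02, Cdh11 -0.29, Sept2 0.99, Sox11 0.03, Zcchc12 0.05, Ccdc85c 0.01, Cacng3 -1.07, Calb1 -3.01, Cdh1 -0.28, Dcc -0.46, Dlgap2 1.11, Fibcd1 -0.84, Gabra4 -1.68, Kcnk10 1.36, Kcnn3 0.80, Nfib 0.50, Nr1d2 -0.26, Rpl22 0.01 and St8sia4 0.79. With the regression the values were Lhfpl2 -0.21, Cacng3 -1.64, Calb1 -0.61, Cdh1 -0.21, Cdh10 0.38, Chl1 0.15, Cntnap4 0.26, Dcx 0.26, Dlgap2 0.27, Fibcd1 -0.19, Gabra4 -0.91, Kcnk10 0.38, Kcnn3 0.12, Nr1d2 -0.34, P2ry12 -0.10, Prph -0.15, Rorb 0.25 and St8sia4 0.31. With the mean over cells of log2(CPM + 5) the values were Cdh10 0.01, Cnp 0.02, Kcnk10 0.13, Rorb 0.29 and St8sia4 0.05. In run 2 alone the values were Cry1 0.13, Dlgap2 0.74, Kcnk10 0.16 and St8sia4 0.63. With the authors' FPKM values the values were Dlgap2 0.26 and Unc13a 0.19.

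No paired analysis was possible because the numbers in the labels only count the cells of an age and name no animal, litter or day that ages share. Depth limits the genes found in few cells, and shares and limits for a count of 0 cover counting error only. The settings that use the Cdh6 level, leave out the 2 doubtful cells or the cells rich in microglial genes or Gm10800, put P10 in place of P12 or centre on GC content were chosen after seeing the data.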
